A study of Homo sapiens with 6 samples.

Results

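RAB small GTPases were followed here as the rows of the deposited gene table that carry 1 name made of RAB, a number and at most 1 further letter, with RAB27A and RAB27B left out. The rule found 52 such rows among 18268. Of these, 38 averaged 1 FPKM or more across all 6 libraries and were tested among 9694 rows, while 14 averaged less. FPKM is a fragment count scaled to gene length and to the mapped fragments of a library. The rule read only the names, so it used no level and no difference. RNA came from MIA PaCa-2, an established human pancreatic carcinoma line. Per the labels, 3 libraries were made from cells with the empty pCDH vector and 3 from cells overexpressing LINC00901, a long noncoding RNA. Both groups were grown in DMEM with fetal bovine and horse serum, and the labels state no other allele, agent or time point and no clone. They do not say whether replicates were separate cultures, so p-values measure the spread between these samples only, which may be technical.

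RAB proteins are the largest branch of the RAS-like small GTPases and mark the membranes of the secretory and endocytic routes. Each is carried to membranes by escort proteins and held there by prenyl anchors, is loaded with GTP by an exchange factor (GEF), then binds effectors such as tethers and motor adaptors, and is switched off by a GTPase-activating protein (GAP). In carcinoma cells the family is known for routing adhesion proteins and growth factor receptors and for secretion.

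Summed FPKM was 87162 to 88738 in the vector libraries and 127768 to 128538 in the overexpression libraries, and the read depth behind these values is unknown. No row names LINC00901, so its level was not analysed here and the groups are as labelled. Of 7 epithelial markers, 6 had a row and 4 reached 1 FPKM in some library, but EPCAM did not pass 0.14 FPKM and CDH1 did not pass 0.08. KRT18, a simple-epithelium keratin, was at 90.93 to 105.38 FPKM with the vector and at 62.48 to 86.92 with overexpression. KRT19, another keratin, was at 2.22, 2.98 and 5.92 FPKM with the vector and at 22.89, 23.95 and 25.02 with overexpression. The summed level of the epithelial list was 105.37 to 118.45 FPKM against 106.11 to 115.76. Of the fibroblast list, 3 of 5 rows reached 1 FPKM, led by COL3A1, while DCN stayed at or below 0.01 and PDGFRB at or below 0.14; the sum was 188.76 to 204.54 FPKM with the vector and 173.91 to 198.32 with overexpression. Leukocyte markers summed to at most 0.18 FPKM with 3 of 4 rows at 0 in every library, and endothelial markers to at most 0.64 FPKM. The part of these marker differences in the RAB results was not tested.

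RAB31, RAB7A and RAB1B showed the largest rises that were called among RAB genes, and RAB18 the single fall called on both scales below. All libraries were compared on log2(FPKM + 0.5) by limma with Benjamini-Hochberg adjustment over all 9694 tested rows, once unscaled and once after each library was centred on its median tested row. Centring lowers each difference by 0.208 log2. In the unscaled fit 16 of 38 tested RAB genes were higher with overexpression (42.1%), where 37.4% of all tested rows were, and 1 was lower, where 11.9% of all tested rows were. After centring 10 were higher (26.3%), where 24% of all tested rows were, and 4 were lower (10.5%), where 19.2% were. The shares of higher calls thus lay close to those of the whole table in both fits, and the shares of lower calls were below them; neither comparison of shares was tested. The split moved further under quantile normalization, with 10 higher and 5 lower, where 19.2% and 20.9% of all tested rows were. The median unscaled log2 difference was 0.53 over the 38 RAB genes and 0.27 over all tested rows, and the medians after centring were 0.32 and 0.06. Libraries of the groups did not overlap for 21 RAB genes that were higher and 4 that were lower, where 44.9% and 15.6% of all tested rows were separated in this way. In bulk RNA, a change in the number of cells that make a transcript and a change in RNA per cell cannot be told apart.

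**Figure D1:**
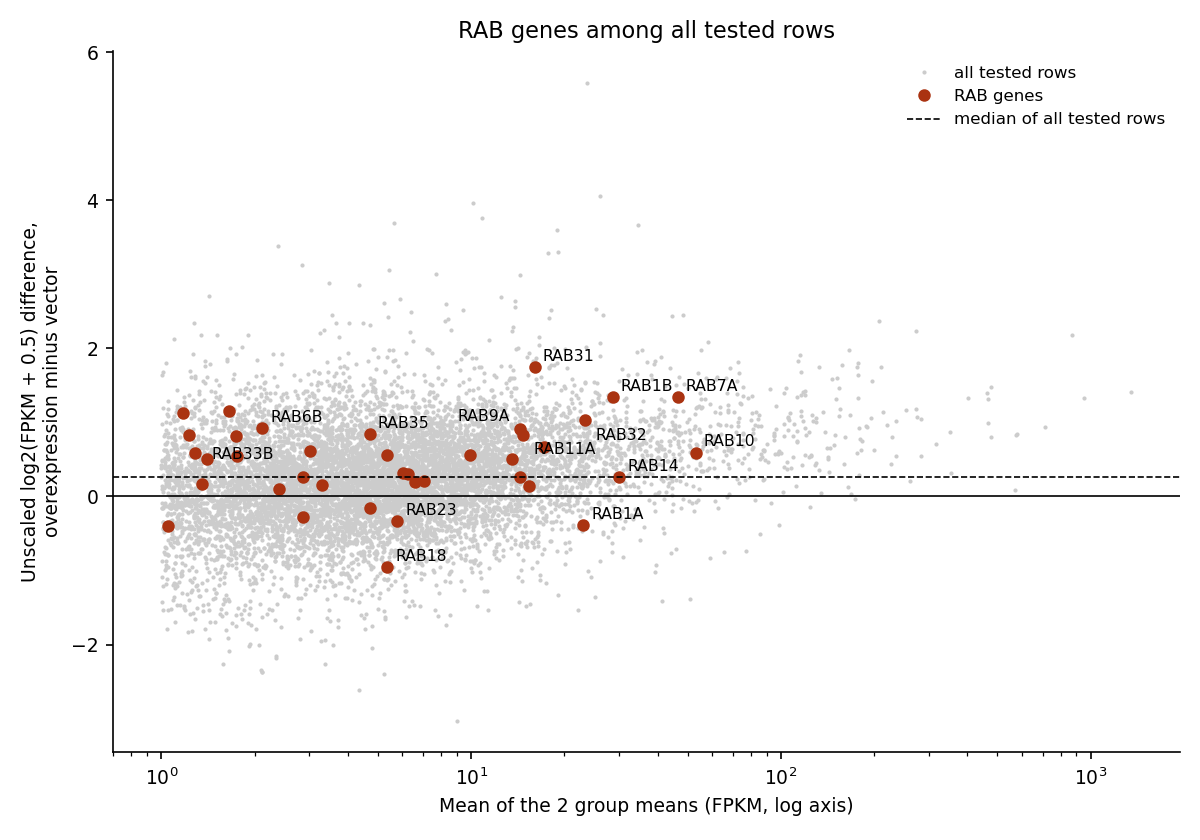
Unscaled log2(FPKM + 0.5) difference, overexpression minus vector (vertical axis), against the mean of both group means in FPKM (log axis), for all 9694 tested rows (grey) and the 38 tested RAB genes (red). The dashed line is the median of all tested rows, 0.27; RAB31 is highest among the RAB genes at 1.75 and RAB18 lowest at -0.95.

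Below, a RAB gene is said to have risen or fallen only where both fits called it, which held for 10 and 1 genes. Relative log2 differences are those of the centred fit, overexpression minus vector, with limma's 95% interval and adjusted p. Levels are listed for libraries 1, 2 and 3 in that order. A further 6 genes were called higher only unscaled and 3 called lower only after centring, and 18 were called in neither fit. Of the 17 genes called in the unscaled fit, 9 held their call under every alternative run for them: RAB31, RAB7A, RAB1B, RAB32, RAB9A, RAB35, RAB11A, RAB33B and RAB18.

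The windows upstream of the start sites of RAB31, RAB7A, RAB1B and RAB18 are shown because these genes had the largest relative differences among those called in both fits. Each is the 250 bases before the start in RefSeq's GRCh38.p14, 5′ to 3′ on the plus strand, which is the strand of all 4 genes. Capitals mark matches, on either strand, to the letters of an E-box (CACGTG), a CRE (TGACGTCA), an AP-1 site (TGANTCA), an EGR core (GTGGGCG) or an ETS core (CGGAAG).
RAB31, chr18:9708051-9708300: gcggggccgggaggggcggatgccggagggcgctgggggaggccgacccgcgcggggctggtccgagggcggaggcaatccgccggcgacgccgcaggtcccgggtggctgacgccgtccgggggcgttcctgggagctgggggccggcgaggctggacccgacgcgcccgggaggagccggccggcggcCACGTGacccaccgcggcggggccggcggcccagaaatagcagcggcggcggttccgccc
RAB7A, chr3:128725933-128726182: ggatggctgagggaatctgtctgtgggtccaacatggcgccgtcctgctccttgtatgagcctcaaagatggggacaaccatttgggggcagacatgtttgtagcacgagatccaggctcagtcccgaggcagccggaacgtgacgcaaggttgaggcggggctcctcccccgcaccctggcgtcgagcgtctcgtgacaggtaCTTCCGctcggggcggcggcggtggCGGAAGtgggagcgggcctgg
RAB1B, chr11:66268389-66268638: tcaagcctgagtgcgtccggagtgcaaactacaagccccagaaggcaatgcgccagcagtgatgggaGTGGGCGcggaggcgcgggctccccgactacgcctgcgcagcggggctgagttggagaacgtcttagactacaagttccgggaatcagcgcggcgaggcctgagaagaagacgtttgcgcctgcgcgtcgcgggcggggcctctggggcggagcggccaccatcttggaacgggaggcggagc
RAB18, chr10:27504054-27504303: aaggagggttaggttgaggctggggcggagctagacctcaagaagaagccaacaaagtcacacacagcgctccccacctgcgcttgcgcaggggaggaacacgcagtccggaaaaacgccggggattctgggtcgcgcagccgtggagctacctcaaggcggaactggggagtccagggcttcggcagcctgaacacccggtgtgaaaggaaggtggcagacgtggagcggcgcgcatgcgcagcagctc
The RAB31 window held 1 E-box, the RAB7A window 2 ETS cores on opposite strands and the RAB1B window 1 EGR core, and in the RAB18 window none of these letters was found. Windows were in the table for 39 of the 52 RAB genes. Among these 39, the E-box letters were in 3, the CRE in 1, the AP-1 site in 3, the EGR core in 9 and the ETS core in 7. Over all 35116 windows of that length the shares were 6.34%, 1.65%, 6.57%, 8.53% and 16.5%. A RAB gene was counted if any of its windows matched, while these shares count single windows. Counts and shares are thus in unlike units and cannot be compared directly. These are letter matches and describe the sequence only.

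Of the secretory pathway and trans-Golgi RABs, 14 of 19 rows were tested. In the unscaled fit 5 of the 14 were higher and 1 lower, and after centring 4 and 2. Set beside these and the counts of the other roles, over all tested rows 37.4% were higher and 11.9% lower unscaled, and 24% and 19.2% after centring. The role groups are small, and their shares were not tested against the whole table. Each gene was given 1 role only, so counts by role depend on where a gene was placed. In this group RAB18 was the gene lower unscaled, and RAB18 and RAB36 were those lower after centring. RAB1B, which with RAB1A directs transport from the endoplasmic reticulum to the Golgi, was at 11.99, 17.52 and 19.05 FPKM with the vector and at 38.71, 44.80 and 39.68 with overexpression. Every overexpression library lay above every vector library, and vector replicate 1 was the lowest of all. RAB1B rose by a relative log2 difference of 1.13 (95% interval 0.73 to 1.54, adjusted p = 0.00265, limma). The same difference was 0.83 when a trend on transcript length and GC content was removed as well. On the opposite strand, exons of AP001107.2 overlap 42.6% of RAB1B's exonic bases in GENCODE 29, and whether the deposited values used strand is not given in the sources used here.

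RAB1A was at 24.12, 28.01 and 25.02 FPKM with the vector and at 13.68, 26.27 and 20.61 with overexpression. Overexpression replicate 2 lay within the vector range and the other two below it. The relative difference of -0.60 did not pass (95% interval -1.13 to -0.06, adjusted p = 0.0712, limma), and neither did the unscaled -0.39 (adjusted p = 0.184). Without overexpression replicate 2 the unscaled difference was called, at -0.60 (adjusted p = 0.0457), and under quantile normalization it was -0.87 (adjusted p = 0.0181). Of the RAB1 pair, RAB1B alone was called on both scales. Exons of CEP68 on the opposite strand overlap 22.9% of RAB1A's exonic bases.

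RAB18, a RAB of lipid droplets and the endoplasmic reticulum, was at 7.11, 7.14 and 7.39 FPKM with the vector. In the overexpression libraries it was at 3.22, 3.91 and 3.35 FPKM, so the groups lay far apart with little spread in either. RAB18 fell by 1.16 in relative log2 difference (95% interval -1.42 to -0.91, adjusted p = 0.000515, limma). It was the single tested RAB gene called lower in the unscaled fit, at -0.95 (adjusted p = 0.000659). Over the 17 alternatives the difference ran from -1.18 to -0.87, and it kept its call in each.

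RAB10, which carries cargo from the trans-Golgi network and endosomes to the plasma membrane, was the highest RAB gene in the vector libraries. Its levels were 40.49, 43.02 and 43.04 FPKM there and 64.32, 62.70 and 64.50 with overexpression. Within each group the libraries were close together, and the groups did not overlap. RAB10 rose by 0.38 in relative log2 difference (95% interval 0.24 to 0.53, adjusted p = 0.00317, limma), but under quantile normalization the difference was -0.06 (adjusted p = 0.432), with the opposite sign and no call. Its share of all RAB FPKM was 13.6%, 13.2% and 13.2% with the vector and 13.3%, 12.4% and 13.2% with overexpression.

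RAB8B, a relative of RAB10 in the same exocytic route, was at 5.29, 4.77 and 5.82 FPKM with the vector and at 7.58, 5.96 and 6.65 with overexpression. The groups did not overlap, though overexpression replicate 2 and vector replicate 3 were close. The relative difference of 0.11 did not pass (95% interval -0.17 to 0.39, adjusted p = 0.488, limma), while with the trend on length and GC content removed it was called higher at 0.44 (adjusted p = 0.0178).

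RAB6B, the less widely expressed partner of the Golgi RAB6A, was at 1.34, 0.82 and 1.87 FPKM with the vector and at 2.62, 3.06 and 3.0 with overexpression. All overexpression libraries were above all vector libraries, and RAB6B rose by 0.71 (95% interval 0.20 to 1.22, adjusted p = 0.0355, limma). Its unscaled call was lost when rows of low level were kept in the fit (adjusted p = 0.0556). RAB6A itself was at 14.04, 14.50 and 14.09 FPKM with the vector, against 19.21, 9.46 and 21.02. Overexpression replicate 2 was the lowest of the 6 and the other overexpression libraries the highest, and RAB6A was called in neither fit. Of the 50-base windows in RAB6A's transcripts, 21.6% are also found in transcripts of other genes, most often RAB6C, so reads could be split between them.

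RAB33B, a Golgi RAB that binds an autophagy factor, was at 1.01, 1.07 and 1.27 FPKM with the vector and at 2.72, 2.45 and 1.93 with overexpression. The groups did not overlap and RAB33B rose by 0.61 (95% interval 0.25 to 0.97, adjusted p = 0.0172, limma). RAB39A was higher only unscaled, by 0.62 (adjusted p = 0.0119), and missed the threshold after centring at 0.41 (adjusted p = 0.0579, limma). RAB36 was lower only after centring, by -0.49 (adjusted p = 0.0187, limma). RAB2A, which acts between the endoplasmic reticulum and the Golgi, was at 9.25 to 15.62 FPKM with the vector and 16.44 to 26.05 with overexpression. These ranges do not overlap, but RAB2A was called in neither fit. RAB34, RAB30 and RAB2B were called in neither fit as well.

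All 6 rows of early endosome RABs were tested. RAB31 was higher in both fits, RAB22A was lower after centring, and the other 4 were called in neither. RAB31, which works at the trans-Golgi network and early endosomes and sorts growth factor receptors, was at 6.29, 7.54 and 7.48 FPKM with the vector and at 25.09, 25.10 and 24.62 with overexpression. The overexpression libraries were nearly equal and lay far above the vector libraries. RAB31 rose by 1.54 in relative log2 difference (95% interval 1.31 to 1.76, adjusted p = 0.000162, limma). Mean levels were 7.10 ± 0.705 FPKM (SD, n = 3) and 24.9 ± 0.274 FPKM (SD, n = 3), a ratio of 3.51. Over 17 alternatives the log2 difference ran from 1.37 to 1.80.

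RAB22A is the closest relative of RAB31. It was at 4.79, 5.30 and 4.85 FPKM with the vector and at 4.69, 3.92 and 4.72 with overexpression. The highest overexpression library was just under the lowest vector library. Its relative difference was -0.36 (95% interval -0.63 to -0.10, adjusted p = 0.0377, limma), and unscaled it was -0.15 and was not called (adjusted p = 0.297).

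RAB5A and RAB5B organise fusion and sorting at early endosomes. RAB5A was at 5.32, 4.15 and 7.30 FPKM with the vector and at 8.45, 5.97 and 6.31 with overexpression, with the groups interleaved. Its relative difference was 0.09 (95% interval -0.40 to 0.59, adjusted p = 0.744, limma). RAB5B was at 4.23, 5.72 and 6.45 FPKM with the vector and at 2.10, 11.32 and 9.62 with overexpression. Overexpression replicate 1 was the lowest of the 6 libraries and the others of that group the highest. The relative difference was -0.01 with a wide interval (95% interval -1.33 to 1.31, adjusted p = 0.993, limma), and the sign of the difference varied with the library left out. Without overexpression replicate 1 the unscaled difference was 0.89 and was called higher (adjusted p = 0.0154), and without replicate 2 of that group it was -0.20 (adjusted p = 0.795). The spread of RAB5B within groups was larger than that of 98.7% of tested rows. RAB21 was similar in spread, above 98.8% of tested rows, with 0.24, 0.23 and 2.83 FPKM in the vector libraries and 2.42, 2.02 and 2.18 with overexpression. Vector replicate 3 alone was as high as the overexpression libraries.

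Of the recycling endosome RABs, 6 of 7 rows were tested, 4 were higher in the unscaled fit and 2 after centring, where 37.4% and 24% of all tested rows were. RAB11A, the main RAB of the recycling endosome, was at 10.43, 11.92 and 9.06 FPKM with the vector and at 20.47, 17.92 and 18.19 with overexpression. The groups did not overlap, and RAB11A rose by 0.62 (95% interval 0.33 to 0.91, adjusted p = 0.00734, limma). RAB11B, its near copy, was at 9.41, 8.08 and 6.30 FPKM with the vector and at 10.86, 13.31 and 11.41 with overexpression. The groups did not overlap here either, but the spread was larger beside the difference. RAB11B was called higher unscaled at 0.56 (adjusted p = 0.0236) and not after centring at 0.36 (95% interval -0.03 to 0.75, adjusted p = 0.121, limma). The unscaled call was lost without overexpression replicate 2 (adjusted p = 0.0745) or 3 (adjusted p = 0.056), and without vector replicate 2 (adjusted p = 0.0506). With the trend on length and GC content removed the difference was -0.01 (adjusted p = 0.961).

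RAB35, which returns cargo from endosomes to the plasma membrane and acts in cytokinesis, was at 3.26, 3.12 and 3.27 FPKM with the vector and at 6.26, 5.99 and 6.29 with overexpression. Libraries within a group lay close together, and the groups were far apart beside that spread. RAB35 rose by 0.64 (95% interval 0.42 to 0.85, adjusted p = 0.00219, limma). RAB14, shared by the trans-Golgi network and recycling endosomes, was at 29.90, 26.54 and 25.57 FPKM with the vector and at 31.62, 34.45 and 32.62 with overexpression. Its groups were separated by a narrow gap. RAB14 was called unscaled at 0.26 (adjusted p = 0.0398) but not after centring at 0.06 (95% interval -0.16 to 0.27, adjusted p = 0.635, limma), and under quantile normalization the difference was -0.27 (adjusted p = 0.056). The unscaled call was lost when any 1 of the overexpression replicates was left out (adjusted p = 0.0592, 0.108 and 0.0971 without replicates 1, 2 and 3) and without vector replicate 2 or 3 (adjusted p = 0.0941 and 0.10). RAB17 and RAB15 were called in neither fit.

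Late endosome, lysosome, autophagy and lysosome-related organelle RABs had 7 of 8 rows tested. In the unscaled fit 5 of these were higher, 3 of which remained higher after centring, and 0 were lower in either fit, where 37.4% and 24% of all tested rows were higher and 11.9% and 19.2% lower. RAB7A, which drives maturation of late endosomes and their fusion with lysosomes, was at 20.54, 33.37 and 25.23 FPKM with the vector. It was at 63.24, 70.59 and 65.50 FPKM with overexpression, well above the vector libraries, of which replicate 2 was the highest. RAB7A rose by 1.13 (95% interval 0.73 to 1.54, adjusted p = 0.00261, limma) and moved from the third highest RAB gene in the vector group to the highest. Under quantile normalization its difference was 0.73 and it was still called (adjusted p = 0.019). RAB7B, a related gene of low level, was at 1.14, 0.42 and 0.73 FPKM with the vector and at 1.95, 1.26 and 1.89 with overexpression. The groups did not overlap. RAB7B was called unscaled at 0.82 (adjusted p = 0.0314) but not after centring at 0.62 (95% interval 0.03 to 1.20, adjusted p = 0.0835, limma). Its unscaled call was lost without overexpression replicate 1 (adjusted p = 0.0974) or 3 (adjusted p = 0.0973), and without vector replicate 2 (adjusted p = 0.0707) or 3 (adjusted p = 0.0684).

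RAB9A, which serves transport from late endosomes to the trans-Golgi network, was at 8.43, 12.23 and 9.16 FPKM with the vector and at 17.97, 19.84 and 18.83 with overexpression. The groups did not overlap, and RAB9A rose by 0.70 (95% interval 0.35 to 1.05, adjusted p = 0.00906, limma). RAB32, a RAB of lysosome-related organelles and of mitochondria-associated membranes, was at 14.04, 12.81 and 18.91 FPKM with the vector and at 29.44, 32.58 and 32.37 with overexpression. Again each overexpression library was above each vector library. RAB32 rose by 0.83 (95% interval 0.49 to 1.17, adjusted p = 0.00413, limma), and the difference was 0.48 with the trend on length and GC content removed (adjusted p = 0.0311). RAB12 was higher only unscaled, by 0.50 (adjusted p = 0.00795), with 0.29 after centring (adjusted p = 0.0616, limma). RAB38, the closest relative of RAB32, and RAB29 were called in neither fit.

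Of the RABs of regulated secretion, 2 of 5 rows were tested and neither was called. RAB3A, a RAB of synaptic and secretory vesicles, was at 0.60, 0.08 and 1.09 FPKM with the vector and at 1.44, 2.56 and 1.28 with overexpression. The overexpression libraries were all higher, but the unscaled test missed the threshold at an adjusted p of 0.0503 (limma). RAB26 was the other. RAB3B was too low to be tested, at 0.27, 0.22 and 0.37 FPKM with the vector and 0.90, 1.05 and 0.90 with overexpression, without overlap.

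Among the cilium-related and less studied RABs, 3 of 6 rows were tested. RAB23, a negative regulator of Hedgehog signalling, was at 6.40, 6.92 and 6.07 FPKM with the vector and at 5.02, 4.32 and 5.85 with overexpression. Every overexpression library was lower, replicate 3 by the smallest margin. RAB23 was lower after centring at -0.54 (95% interval -0.85 to -0.23, adjusted p = 0.0152, limma) and not called unscaled at -0.33 (adjusted p = 0.0709), where it was called without overexpression replicate 3 (adjusted p = 0.0486). Exons of BAG2 on the opposite strand overlap 57.7% of RAB23's exonic bases. RAB28 was higher only unscaled, by 0.56 (adjusted p = 0.0083), and missed the threshold after centring at 0.35 (adjusted p = 0.0512, limma). RAB40B was called in neither fit.

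The 14 untested rows were RAB3B, RAB3C, RAB6C, RAB6D, RAB9B, RAB19, RAB25, RAB33A, RAB37, RAB39B, RAB40A, RAB41, RAB42 and RAB44. RAB19, RAB25 and RAB44 were listed at 0 in all 6 libraries, and a 0 in this table may be a failed estimate. RAB25, an epithelial member of the RAB11 group, was thus listed at 0 in a line in which CDH1 and EPCAM were near 0 as well. Of the 50-base windows of RAB6C and RAB6D, 55.8% and 55.0% are shared with other genes' transcripts, so their low values, at most 0.50 FPKM, are uncertain. Opposite-strand exons also overlap 14.8% of the exonic bases of RAB35, 13.8% of RAB33B and 12.4% of RAB11B, and the part of such reads in their values was not tested.

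**Figure D2:**
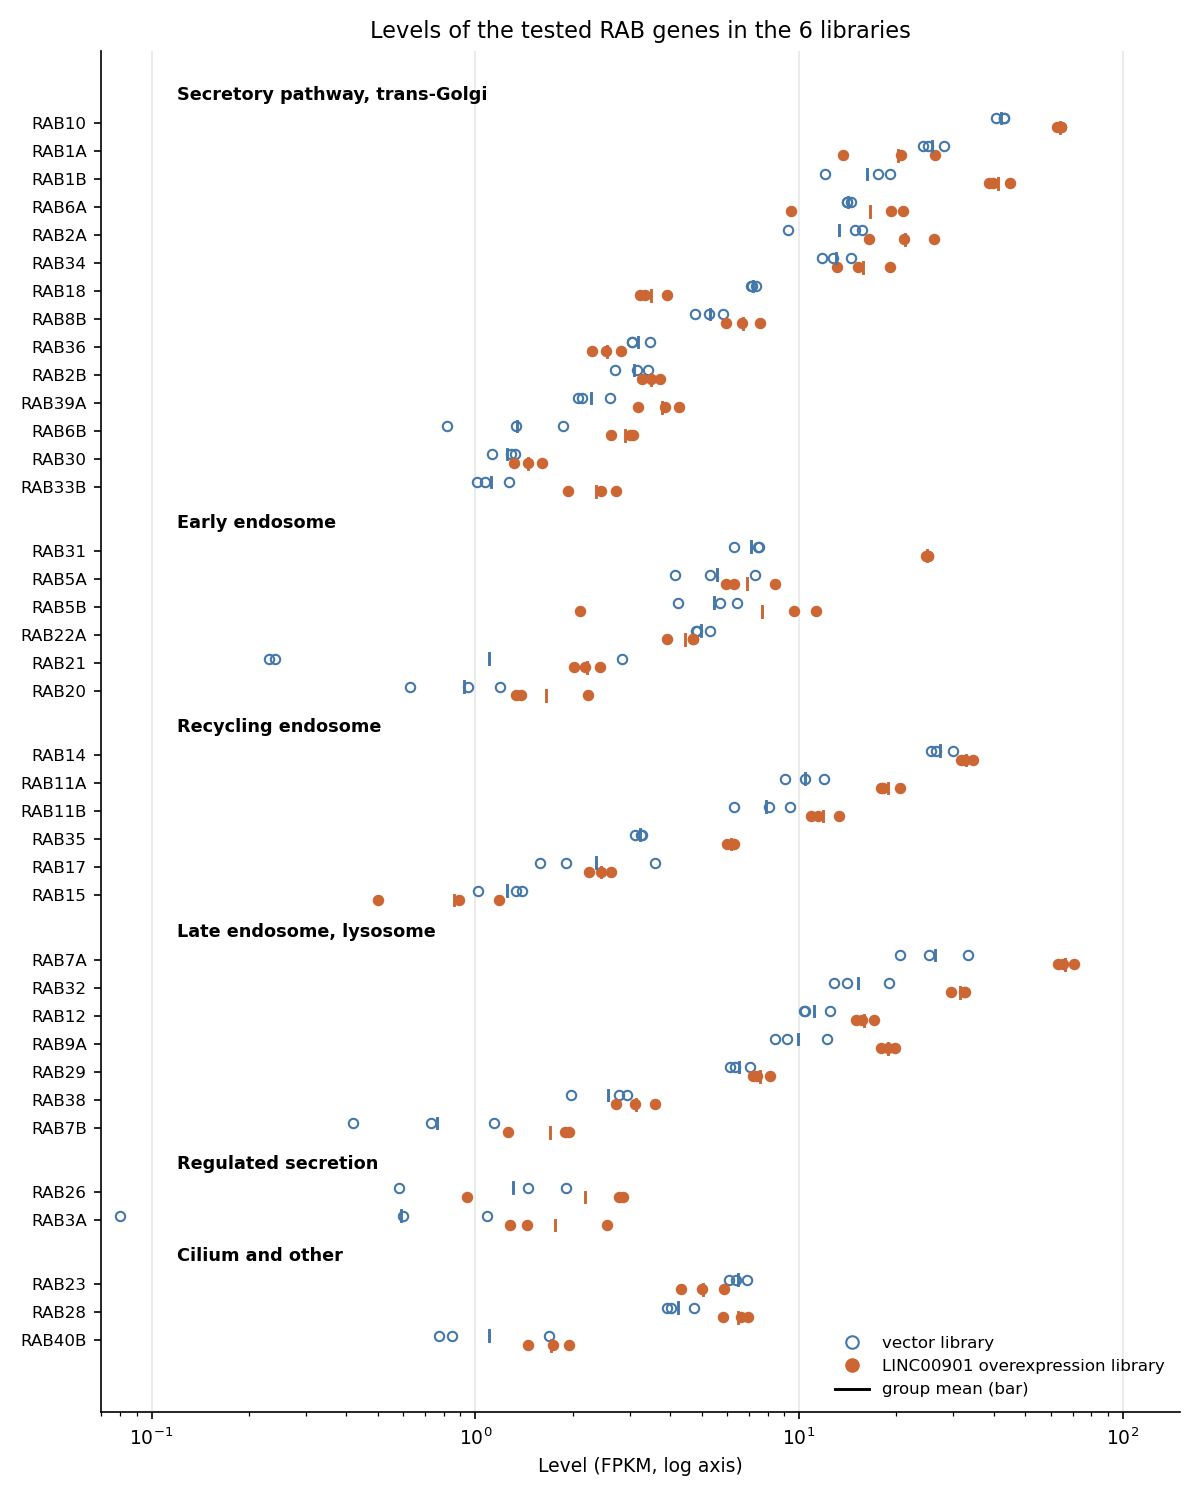
FPKM (log axis) of the 38 tested RAB genes in each vector library (open circles) and each overexpression library (filled circles), grouped by role, with bars at the group means. RAB10, RAB14, RAB7A and RAB1A have the highest vector means; RAB31 rises from 6.29 to 7.54 FPKM in the vector libraries to 24.62 to 25.10, and RAB18 falls from 7.11 to 7.39 FPKM to 3.22 to 3.91.

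**Figure D3:**
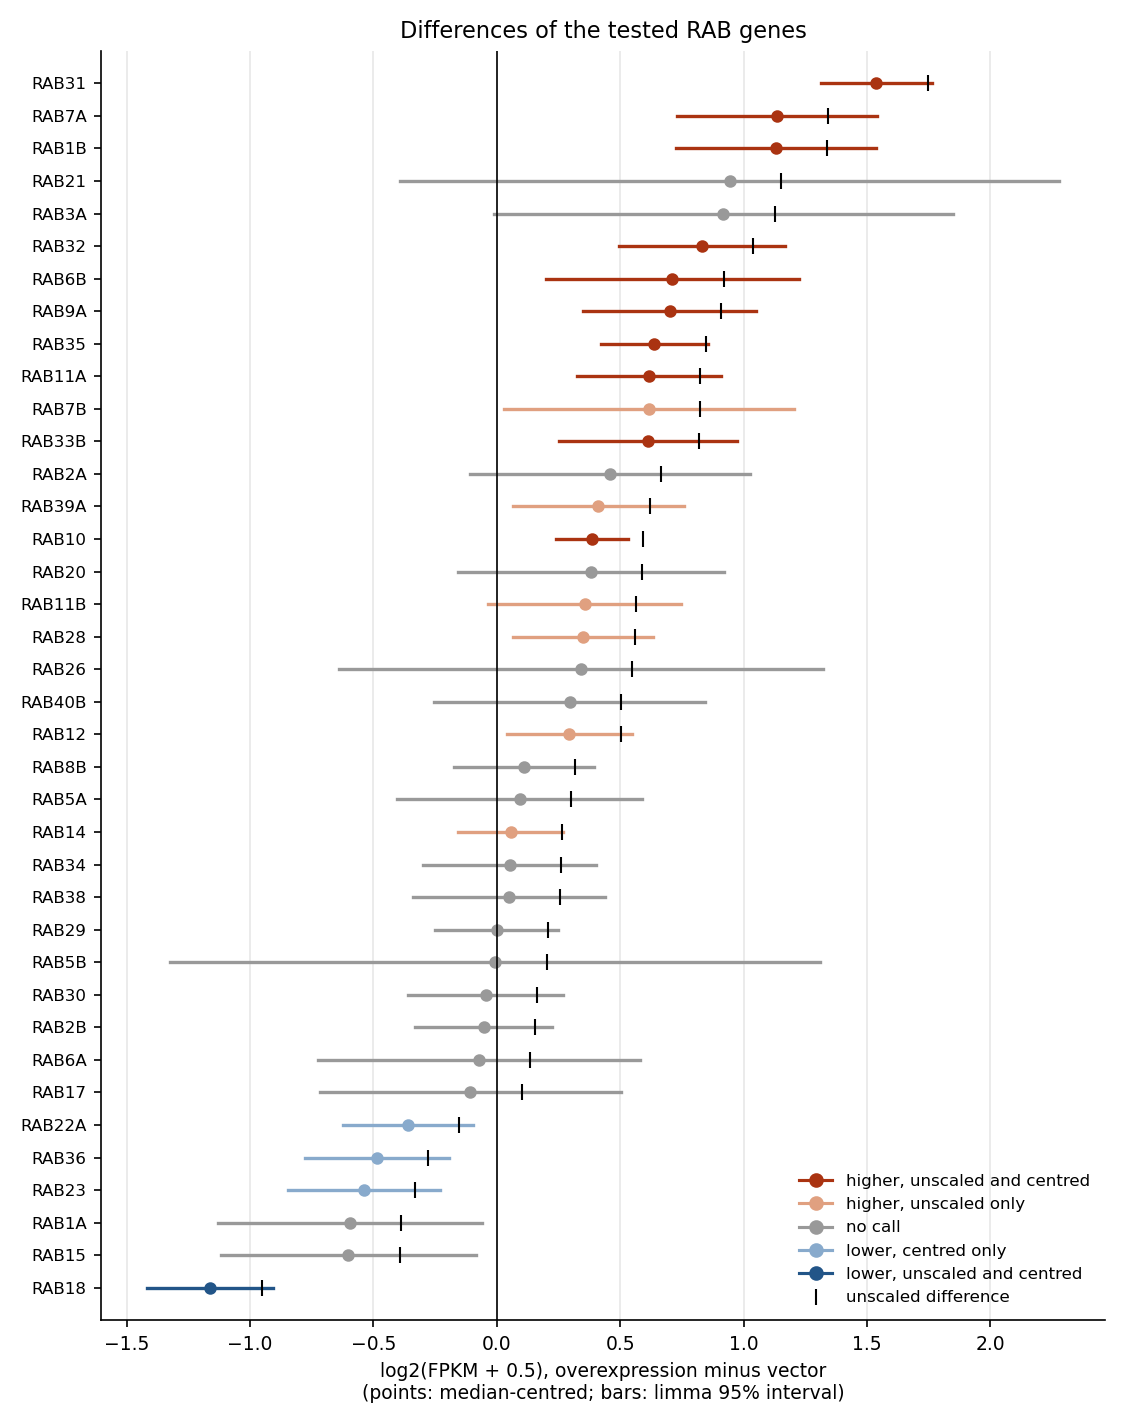
Difference in log2(FPKM + 0.5), overexpression minus vector, for the 38 tested RAB genes. Points with bars are centred values with limma's 95% interval, ticks are unscaled values, and colours give the calls: 10 genes were higher in both fits, 6 higher only unscaled, 3 lower only after centring, 1 lower in both and 18 without a call.

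The make-up of the RAB pool was compared in FPKM, which is per length. RAB FPKM summed to 316 ± 16.8 (SD, n = 3) with the vector and to 492 ± 12.1 (SD, n = 3) with overexpression. As a share of all FPKM this was 0.340%, 0.375% and 0.366% with the vector and 0.375%, 0.394% and 0.383% with overexpression, so the shares nearly met between vector replicate 2 and overexpression replicate 1. Within the pool RAB7A took 6.92%, 10.2% and 7.77% with the vector and 13.1%, 14.0% and 13.4% with overexpression. RAB31 took 2.12%, 2.31% and 2.30%, then 5.20%, 4.96% and 5.04%, and RAB1B 4.04%, 5.37% and 5.86%, then 8.03%, 8.86% and 8.12%. RAB1A went the other way, from 8.13%, 8.58% and 7.70% to 2.84%, 5.19% and 4.22%. The share of RAB14 was also lower, at 10.1%, 8.13% and 7.87%, then 6.56%, 6.81% and 6.67%. Its unscaled FPKM was nevertheless higher in every overexpression library than in any vector library. Its difference was 0.06 after centring and -0.27 under quantile normalization, neither called, so whether its level was higher or lower depended on the scaling. By mean level the vector order was RAB10, RAB14, RAB7A, RAB1A and RAB1B, and with overexpression it was RAB7A, RAB10, RAB1B, RAB14 and RAB32. RAB7A and RAB10 lay close together in the latter order, at 66.4 ± 3.76 and 63.8 ± 0.991 FPKM (SD, n = 3), with overlapping libraries. RAB18 moved from rank 14 to rank 25.

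A share within a pair of related genes does not change when all genes of a library are multiplied by the same factor. Quantile normalization and the removal of a trend on length and GC content can change it. GC content was 38.3% for RAB1A and 61.1% for RAB1B, and 37.2% for RAB11A and 63.5% for RAB11B. Shares were not recomputed under these adjustments. Shares were computed for the 8 pairs with both genes tested and compared by a two-sided exact permutation test, whose smallest possible p with 3 libraries against 3 is 0.1, so none can pass 0.05. RAB1A made up 66.8%, 61.5% and 56.8% of RAB1A plus RAB1B with the vector and 26.1%, 37.0% and 34.2% with overexpression. RAB1A was thus the larger part in every vector library and the smaller in every overexpression library (61.7% ± 5.01 against 32.4% ± 5.64, SD, n = 3, exact p = 0.1). RAB22A made up 43.2%, 41.3% and 39.3% of RAB22A plus RAB31 with the vector and 15.7%, 13.5% and 16.1% with overexpression (exact p = 0.1). RAB31 was the larger part in all 6 libraries. The shares of RAB6A beside RAB6B (exact p = 0.1) and RAB32 beside RAB38 (exact p = 0.1) also did not overlap between groups, with means of 91.4% and 83.7% for RAB6A and of 85.5% and 90.9% for RAB32. Shares overlapped for the other 4 pairs: RAB2A beside RAB2B (80.4% and 85.5%, exact p = 0.3), RAB11A beside RAB11B (57.1% and 61.4%, exact p = 0.3), RAB7A beside RAB7B (96.9% and 97.5%, exact p = 0.8) and RAB5A beside RAB5B (50.3% ± 7.25 and 51.4% ± 24.97, SD, n = 3, exact p = 1). In the RAB5 pair overexpression replicate 1 stood apart at 80.1%, against 34.5% and 39.6% in replicates 2 and 3.

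**Figure D4:**
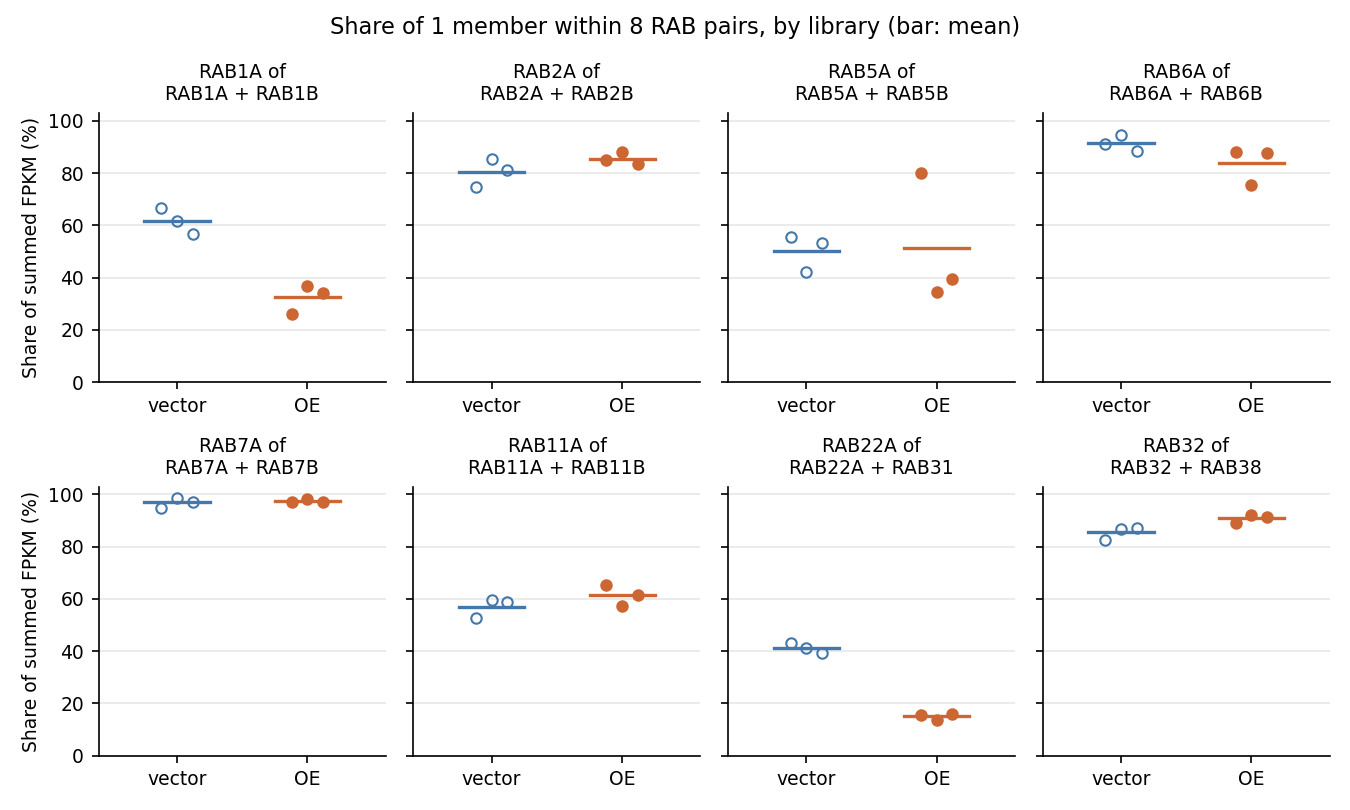
Share (%) of the first-named gene in the summed FPKM of 8 RAB pairs in each vector and each overexpression (OE) library, with bars at the group means. The groups do not overlap for RAB1A, RAB22A, RAB6A and RAB32; the RAB1A mean is 61.7% with the vector and 32.4% with overexpression.

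Other genes of the RAB cycle were taken from 4 lists. Of the prenylation, escort and recycling factors, 5 of 8 had a row and 4 were tested; 2 were higher and 0 lower in either fit, where 37.4% and 24% of all tested rows were higher and 11.9% and 19.2% lower. GDI2, which extracts RABs from membranes, was at 39.79, 42.24 and 40.58 FPKM with the vector and at 68.27, 66.23 and 65.38 with overexpression. Its groups were far apart beside their spread. GDI2 rose by 0.49 in relative log2 difference (adjusted p = 0.00142, limma), but its difference under quantile normalization was 0.03 and not called (adjusted p = 0.682).

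Of the exchange factors, 34 of 37 had a row and 28 were tested. Unscaled, 9 were higher and 1 lower, and after centring 4 were higher and 6 lower. These are 32.1% and 3.57%, then 14.3% and 21.4%, and the whole table moved the same way, with 37.4% and 11.9%, then 24% and 19.2%. RAB3IL1, an exchange factor for RAB8, was at 1.24, 0.79 and 1.11 FPKM with the vector and at 2.87, 3.23 and 3.67 with overexpression, without overlap, and rose by 1.08 (adjusted p = 0.00255, limma). HPS1, part of the exchange factor for RAB32 and RAB38, rose by 0.51 (adjusted p = 0.0386, limma), and was not called with the trend on length and GC content removed (adjusted p = 0.0632). CCZ1B, part of the exchange factor for RAB7, was higher only unscaled, by 0.86 (adjusted p = 0.0308), and lost that call without overexpression replicate 1, 2 or 3 (adjusted p = 0.0857, 0.059 and 0.0786). DENND1B, an exchange factor for RAB35, was at 2.58, 2.77 and 2.84 FPKM with the vector and at 2.12, 1.72 and 2.01 with overexpression, and fell by 0.61 in relative log2 difference (adjusted p = 0.00662, limma). Its unscaled call of -0.40 (adjusted p = 0.0308) was lost without overexpression replicate 2 or 3 (adjusted p = 0.0936 and 0.078) and without vector replicate 2 or 3 (adjusted p = 0.0637 and 0.0724), and DENND1B was not called with the trend on length and GC content removed (adjusted p = 0.204).

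Of the GTPase-activating proteins, 28 of 35 had a row and 25 were tested. Unscaled, 9 were higher and 1 lower (36% and 4%), and after centring 6 and 1 (24% and 4%). The shares of higher calls were close to the 37.4% and 24% of all tested rows, where 11.9% and 19.2% were lower. EVI5L was at 1.19, 0.69 and 0.44 FPKM with the vector and at 2.65, 2.74 and 2.76 with overexpression, and rose by 1.17 (adjusted p = 0.00644, limma). TBC1D1, which acts on RABs of glucose transporter vesicles, was at 1.67, 1.47 and 2.57 FPKM, then at 5.73, 4.56 and 5.77, and rose by 1.10 (adjusted p = 0.00406, limma). Neither gene's groups overlapped. TBC1D16 and TBC1D17 were higher only unscaled, by 1.22 (adjusted p = 0.0339) and 0.91 (adjusted p = 0.0335, limma). Without overexpression replicate 1, 2 or 3 the adjusted p was 0.0576, 0.093 and 0.0877 for TBC1D16 and 0.0631, 0.0878 and 0.09 for TBC1D17.

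A pair of regulators tied to RAB18 and RAB1 is added here, chosen after their values were seen. Both are in the GAP list and its counts above. RAB3GAP1, a subunit of the exchange factor for RAB18, was at 11.12, 10.97 and 11.93 FPKM with the vector and at 20.29, 18.09 and 18.31 with overexpression, and rose by 0.50 (adjusted p = 0.0035, limma). RAB3GAP2, in the same list, was called in neither fit. Its relative difference was 0.008 (adjusted p = 0.952, limma) and its unscaled difference 0.22 (adjusted p = 0.0953, limma). RAB18 itself fell, and a link between these genes was not tested. TBC1D20, a GAP for RAB1 and RAB18, was at 9.45, 9.18 and 10.56 FPKM, then at 6.36, 8.02 and 7.40. TBC1D20 fell by 0.61 (adjusted p = 0.00609, limma). Its unscaled call of -0.40 (adjusted p = 0.0262) was lost without overexpression replicate 1 or 3 (adjusted p = 0.0684 and 0.065) or vector replicate 3 (adjusted p = 0.0709).

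Of the effectors, 34 of 36 had a row and 32 were tested. Unscaled, 15 were higher and 2 lower (46.9% and 6.25%), and after centring 10 and 4 (31.2% and 12.5%). Over all tested rows the shares were 37.4% and 11.9%, then 24% and 19.2%, and the difference was not tested. RILP, which links RAB7 to the dynein motor, was at 0.99, 0.42 and 0.96 FPKM with the vector and at 3.78, 3.35 and 3.19 with overexpression, and rose by 1.43 (adjusted p = 0.00224, limma). RILPL1, a relative of RILP, was at 3.73, 4.45 and 4.41 FPKM, then at 1.51, 1.54 and 0.97, and fell by 1.57 (adjusted p = 0.00078, limma). RILP and RILPL1 thus changed in opposite directions, each without overlap. RILPL2, which is also in the list, rose like RILP, by 0.74 (adjusted p = 0.0365, limma). RUFY1, an endosomal effector of RAB4 and RAB14, was at 5.28, 5.38 and 5.43 FPKM, then at 12.30, 11.79 and 11.89, and rose by 0.88 (adjusted p = 0.000499, limma). RAB11FIP3, which binds RAB11, was at 2.72, 2.16 and 2.38 FPKM, then at 1.08, 1.27 and 1.84, and fell by 0.85 (adjusted p = 0.00967, limma). Its unscaled call of -0.64 (adjusted p = 0.0243) was lost without overexpression replicate 1 or 2 (adjusted p = 0.0718 and 0.0727) or vector replicate 1 or 3 (adjusted p = 0.0672 and 0.0536). Median relative differences were 0.19 for the escort list, 0.03 for exchange factors, 0.04 for GAPs and 0.08 for effectors, beside 0.06 over all tested rows.

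**Figure D5:**
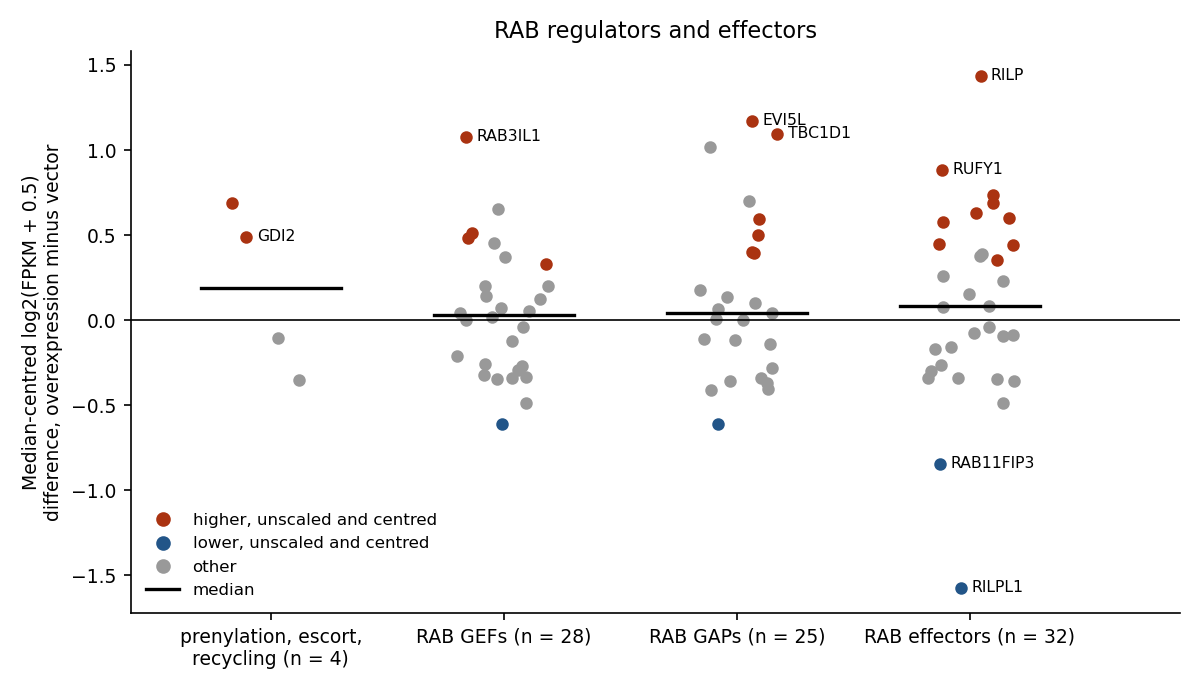
Centred log2(FPKM + 0.5) difference, overexpression minus vector, for each tested gene of the 4 lists; colours mark genes called higher or lower in both fits and bars are medians. RILP is highest among the effectors at 1.43 and RILPL1 lowest at -1.57, and the 4 medians lie between 0.03 and 0.19.

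As other small GTPases, 15 ARF and ARL genes were tested, of which 10 were higher unscaled and 8 after centring. Their median unscaled difference was 0.71, beside 0.53 for the RAB genes, and whether the families differ was not tested. Median transcript length was 3143 bases over the tested RAB genes and 3461 over tested rows with a known length, and median GC content was 44.7% and 47.9%. With a trend on both removed, 12 RAB genes were higher, where 22.8% of 8830 rows were, and 2 lower, where 17.4% were.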

How the data were processed

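RNA of 6 MIA PaCa-2 libraries was analysed, 3 with the vector and 3 with LINC00901 overexpression, grouped by the labels. The deposited values are FPKM, 1 per row and library. The submitters' processing notes name HISAT2, cutadapt, FastQC and the build hg19, without versions. For strand use and the tool behind the FPKM values, nothing is given in the sources used here. Read depth is unknown, so no counting interval was computed. The RAB genes, roles, lists and tests were chosen with earlier results of these data known.

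Values were compared as log2(FPKM + 0.5), which understates the change of low genes, with limma 3.58.1 in R 4.3.3 (intensity trend, no replicate block, Benjamini-Hochberg threshold 0.05) on rows with a mean of at least 1 FPKM, unscaled and centred on each library's median tested row. This was tested on simulated data. Levels in all libraries are given for RAB genes called in both fits, for those called in 1 fit with a relative log2 difference above 0.5, for tested RAB1, RAB5, RAB7, RAB8 and RAB11 genes, and for the 4 called genes of each list with the largest relative difference. Some items that these rules take are not reported here. Further genes are named with fewer values. RAB21, RAB3A, RAB3B, RAB6A, RAB14, RAB22A, RAB2A, RAB3GAP1, RAB3GAP2 and TBC1D20 were added after their values were seen. Alternatives were pseudocounts of 1 and 0.1, a filter at a mean of 5 FPKM or none, centring, quantile normalization, a replicate block, leaving out each library, robust estimation, no intensity trend, leaving out joined rows, and removing a trend on transcript length and GC content. The last of these also centred each library on its median row and used only rows of known length. Its changes of unscaled calls thus include the effect of centring. Pair shares used FPKM as deposited, with 0.5 FPKM added to each gene as an alternative. Length, GC content, shared 50-base windows and exon overlaps came from GENCODE 29 by symbol, with length known for 91.1% of tested rows. Promoter windows are RefSeq's, of another build than the authors', and were matched by symbol. Protein sequences were not used here. Other steps used scipy 1.17.1, pandas 2.3.3, matplotlib 3.10.9 and numpy 2.4.6 under Python 3.11.15.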

Additional observations from a re-analysis of the deposited data

How the results depend on the processing

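Of 664 recomputed values of single genes, 572 kept direction and side of the threshold, 73 lost a call, 12 gained one and 7 reversed. The 16 RAB genes called higher became 10 with median centring and 10 with quantile normalization, and 13 to 17 when 1 library was left out. The 1 called lower became 4, 5 and, with length and GC content corrected, 2, and 1 to 2 when 1 library was left out. Over all 9694 tested rows, 3621 were higher and 1152 lower. These counts became 2331 and 1866 with centring and 1865 and 2024 with quantile normalization. With length and GC content corrected, which also centres each library, they were 2015 and 1535 of 8830 rows. With 1 library left out they were 2768 to 3371 and 812 to 1004, and after centring 1728 to 2159 and 1383 to 1618. After centring, 10 higher and 4 lower became 16 and 7 without a filter, where 52 RAB genes and not 38 were tested and 3454 and 5803 of all 18268 rows were called; they became 8 to 13 and 2 to 4 when 1 library was left out; the 2 was without overexpression replicate 3. Under quantile normalization RAB10 reversed to -0.063, RAB14 to -0.27 and RAB5B to -0.036, and with length and GC content corrected RAB11B reversed to -0.011. RAB5B also reversed with median centring (-0.0068) and without overexpression replicate 2 (-0.20) or 3 (-0.09), with a range of -0.20 to 0.89 when 1 library was left out. The cause was not tested.

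Over all rows with a mean of at least 5 FPKM, 2396 of 4830 were higher and 422 lower. Without a filter 3164 and 1190 of 18268 were. Among the escort factors, 2 higher became 1 under quantile normalization. The 9 exchange factors higher became 3 with length and GC content corrected, 4 with a mean of at least 5 FPKM (9 genes tested, not 28), 4 with centring and 3 with quantile normalization, and 6 to 8 when 1 library was left out; the 1 lower became 0, 0, 6 and 6, 0 with the replicate block, and 0 to 1 when 1 library was left out. The 9 GAPs higher became 3 with a mean of at least 5 FPKM (9 genes tested, not 25) and 6 to 8 when 1 library was left out, and the 1 lower became 2 with length and GC content corrected, 0 without a filter and 0 to 1 when 1 library was left out. The 15 effectors higher became 8 with a mean of at least 5 FPKM (14 genes tested, not 32), 7 under quantile normalization and 11 to 14 when 1 library was left out, and the 2 lower became 0 with that mean, 4 with centring, 5 with quantile normalization and 1 to 2 when 1 library was left out.

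The difference in pair share, in percentage points, kept its direction in 53 of 56 recomputations. It reversed for RAB5A, to -2.99 without vector replicate 2 and -13.2 without overexpression replicate 1, and for RAB7A, to -0.489 without vector replicate 1. With 1 library left out, the range was -31.7 to -26.1 for RAB1A, 2.22 to 7.56 for RAB2A, -13.2 to 9.57 for RAB5A, -9.87 to -3.65 for RAB6A, -0.489 to 1.52 for RAB7A, 2.10 to 6.34 for RAB11A, -27.1 to -25.2 for RAB22A and 3.95 to 6.26 for RAB32.

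The labels do not say whether replicate numbers pair the samples. Deviations of same-numbered libraries from their group means correlated at -0.037, -0.0057 and -0.0050, and those of different-numbered libraries at -0.015 to 0.021. No shared deviation by replicate number was seen, but this cannot show that the samples were unpaired. With the replicate block 17 RAB genes were higher and 1 lower, and 9 and 4 after centring. Over all 9694 tested rows the block gave 3262 higher and 965 lower, and 2033 and 1567 after centring. Among the single genes recomputed here the block lost the calls of RAB14 (adjusted p = 0.0834), TBC1D17 (adjusted p = 0.0503) and DENND1B (adjusted p = 0.0748) and changed the call of no other (limma). Higher calls in the lists became 8 for exchange factors, 7 for GAPs and 13 for effectors.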

Other observations

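A further 9 rows join a RAB name with other gene names, so their values cannot be given to 1 gene and they were left out of the counts. The row of RAB13, SLC39A1 and JTB was at 10.77, 11.31 and 12.53 FPKM with the vector and at 22.18, 23.98 and 23.77 with overexpression. It was higher in both fits (relative log2 difference 0.78, adjusted p = 0.000926, limma). The row of RAB43, ISY1-RAB43 and ISY1 was higher in both fits as well (0.63, adjusted p = 0.0325). The rows holding RAB5C, RAB24 and RAB3D were higher only unscaled, those holding RAB8A, RAB4A and RAB4B were called in neither fit, and the one holding RAB40C was too low to be tested. Genes of the RAB4 group and RAB8A were thus seen in joined rows alone.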
